A study of Mus musculus with 48 samples.

Results

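The genes considered here encode the enzymes that turn cholesterol into bile acids in the liver. All probe sets of 10 such genes (Cyp7a1, Cyp8b1, Cyp27a1, Cyp7b1, Hsd3b7, Akr1d1, Amacr, Baat, Slc27a5 and Acox2) were taken by gene symbol, which gave 16 of the 45037 probe sets tested and 10 of the 18193 genes that have a probe set of their own. They were measured in the livers of male C57BL/6J mice on Affymetrix mouse expression arrays, with 1 mouse per array. All mice were delivered at 6 to 7 weeks of age and kept for 2 weeks before the diets. They were first made obese on the L-P/C-HF diet (15% of energy from protein, 30% from carbohydrate and 55% from fat) for 10 weeks. By the study's methods all then had a glucose tolerance test, and those with the largest glucose response were chosen for the diets. The H-P/C-HF mice then received 30% of energy from protein, 15% from carbohydrate and 55% from fat, whereas the L-P/C-HF mice stayed on their diet. The groups were H-P/C-HF 4-wk with 12 mice, L-P/C-HF 4-wk with 12, H-P/C-HF 2-d with 11 and L-P/C-HF 2-d with 12. Mice at 4-wk were thus older and killed on a different date. By the study's methods they alone also had a further glucose tolerance test, after an overnight fast, during the diet period. None of this can be told apart from the length of feeding.

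Bile acid synthesis is the main route by which cholesterol leaves the body. In the classic pathway CYP7A1, the rate-limiting enzyme, adds a hydroxyl group to cholesterol in the endoplasmic reticulum, and CYP8B1 further downstream steers the product toward cholic acid. In the alternative pathway CYP27A1, a mitochondrial enzyme, starts on the sterol side chain and CYP7B1 hydroxylates the resulting oxysterols. CYP27A1 is counted below only by its role as the first enzyme of this pathway, whatever part it has elsewhere. The later steps are shared. HSD3B7 and AKR1D1 modify the sterol ring, SLC27A5 and AMACR act on the side chain, ACOX2 starts its shortening in peroxisomes, and BAAT joins the finished bile acid to taurine or glycine. Bile acids that return to the liver repress Cyp7a1 and Cyp8b1 through the nuclear receptor FXR and its target NR0B2 (SHP).

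Values are on the log2 scale, so that a difference of 1 log2 unit is a doubling. A probe set counts as called, and as having risen or fallen, where its limma p, adjusted over all probe sets by the Benjamini-Hochberg method, was under 0.05, and the brightest probe set stands for a gene unless another is named. One H-P/C-HF 2-d array (B25), which the study had dropped, was left out here. Its values lay below those of all other arrays for 3 of the 10 enzymes (Amacr, Slc27a5 and Acox2) and for 16.7% of all genes. Array medians of the other arrays lay between 6.73 and 6.91. The 3' minus 5' signal of the Gapdh and beta-actin control probe sets, a measure of RNA degradation, had a median of 0.25 (H-P/C-HF) and 0.24 (L-P/C-HF) at 4-wk, against 0.45 (H-P/C-HF) and 0.44 (L-P/C-HF) at 2-d. All 6 hepatocyte markers were measured, and their mean level per mouse ranged from 13.36 to 13.85 over all groups. Their diet differences had a median of -0.00 at 4-wk and 0.01 at 2-d, with none called. At 2-d 2 of the 6 were higher with H-P/C-HF at an unadjusted p under 0.05, and at 4-wk none was. All 8 markers of Kupffer cells, the resident macrophages of the liver, had a diet difference below 0 at both durations, with a median of -0.33 at 4-wk and -0.12 at 2-d and none called. In whole liver, fewer cells of a type and less RNA per cell cannot be told apart.

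The diet comparison asked whether the exchange of carbohydrate for protein altered the transcripts of bile acid synthesis. Cyp7a1 was the enzyme gene with the largest diet difference at each duration and Cyp8b1 came next at 4-wk, while the other 8 genes differed by at most 0.18 log2 units at either duration. Averaged over both durations, 1 of the 16 probe sets was called, the brightest of Cyp7a1, against 23 of 45037 probe sets overall (0.0511%). At 4-wk none of the 16 was called, against 0% of all probe sets. There 4 had an unadjusted p under 0.05 (both of Cyp7a1, Cyp8b1 and a dim one of Cyp27a1), against 2.76% of all probe sets. At 2-d none of the 16 was called, against 0.0133% of all, and 2 (both of Cyp7a1) had an unadjusted p under 0.05, against 3.52% of all. At an unadjusted p under 0.001, 2 of the 16 passed at 4-wk and none at 2-d, against 27 and 58 of all probe sets. The median difference over the 10 enzymes was 0.02 at 4-wk and 0.05 at 2-d, beside -0.02 and 0.01 over all genes.

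**Figure D1:**
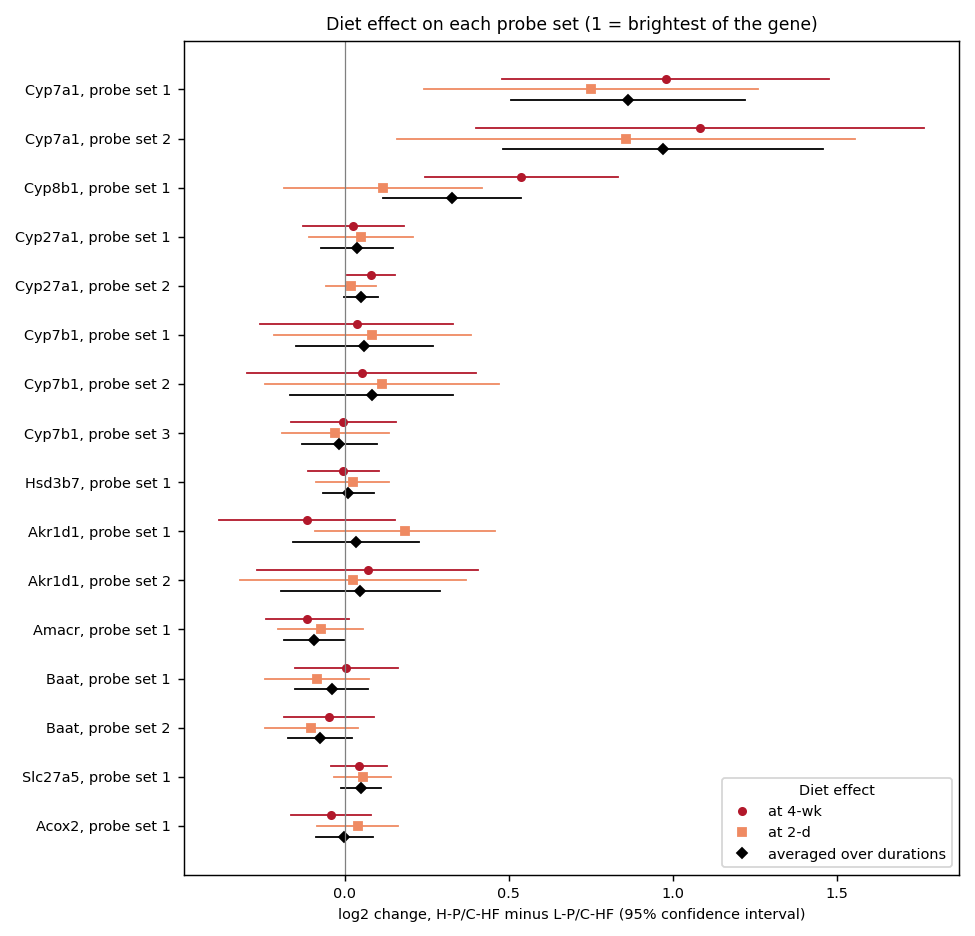
Diet difference (log2, positive where H-P/C-HF was higher) of each of the 16 probe sets at 4-wk (circles), at 2-d (squares) and averaged over durations (diamonds), with 95% confidence intervals from limma. Both Cyp7a1 probe sets lie between 0.75 and 1.08 log2 units and Cyp8b1 at 0.54 at 4-wk, while the intervals of nearly all other probe sets include 0.

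Cyp7a1 rose with the H-P/C-HF diet on average over the durations. At 4-wk its level ranged from 9.59 to 12.18 with a median of 11.40 in H-P/C-HF livers, against 9.24 to 11.33 with a median of 10.11 in L-P/C-HF livers. The groups overlapped, but 11 of 12 H-P/C-HF livers exceeded the median of L-P/C-HF and 6 lay above every L-P/C-HF mouse. The difference at 4-wk was 0.98 ± 0.25 log2 units (SE), a fold of 1.97 (95% confidence interval 1.40 to 2.78), with an unadjusted p of 0.000246 and an adjusted p of 0.999. At 2-d the level ranged from 10.18 to 12.14 with a median of 11.64 in H-P/C-HF livers, against 9.72 to 11.60 with a median of 10.86 in L-P/C-HF livers. Here too 10 of 11 H-P/C-HF livers exceeded the median of L-P/C-HF, and 6 lay above every L-P/C-HF mouse. The difference at 2-d was 0.75 ± 0.25, a fold of 1.68 (1.18 to 2.39), with an unadjusted p of 0.00472 and an adjusted p of 1. Averaged over durations the difference was 0.86 ± 0.18, a fold of 1.82 (1.42 to 2.33), with an adjusted p of 0.0342. The diet differences at 4-wk and 2-d were not distinguishable, with a gap of 0.23 log2 units (95% confidence interval -0.48 to 0.94, unadjusted p = 0.521). The order of the group means was H-P/C-HF 2-d (11.56), H-P/C-HF 4-wk (11.30), L-P/C-HF 2-d (10.81) and L-P/C-HF 4-wk (10.32), and SDs within groups were 0.56 to 0.73. The call is close to the threshold: it was lost when any 1 of 17 mice was left out, with differences of 0.81 to 0.86 and adjusted p of 0.0507 to 0.0681. These were replicates 2, 3 and 8 of H-P/C-HF 4-wk, 1, 2, 4, 7 and 8 of L-P/C-HF 4-wk, 2, 5, 6, 9 and 10 of H-P/C-HF 2-d, and 1, 10, 11 and 12 of L-P/C-HF 2-d. The call was also lost with the replicate number as a factor in the model.

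The dimmer of the Cyp7a1 probe sets gave similar diet differences and wider intervals. In H-P/C-HF livers at 4-wk it ranged from 8.29 to 10.93 (median 9.99), against 7.14 to 10.40 (median 8.77) in L-P/C-HF livers. At 2-d it ranged from 7.41 to 10.57 (median 9.55) in H-P/C-HF livers, against 7.01 to 10.09 (median 8.80) in L-P/C-HF livers. The groups overlapped at both durations. The difference was 1.08 ± 0.34 at 4-wk, 0.86 ± 0.35 at 2-d and 0.97 ± 0.24 averaged over durations (unadjusted p = 0.000212, adjusted p = 0.183). Across the 47 mice, the deviations of both probe sets from their group means correlated with an r of 0.92.

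**Figure D2:**
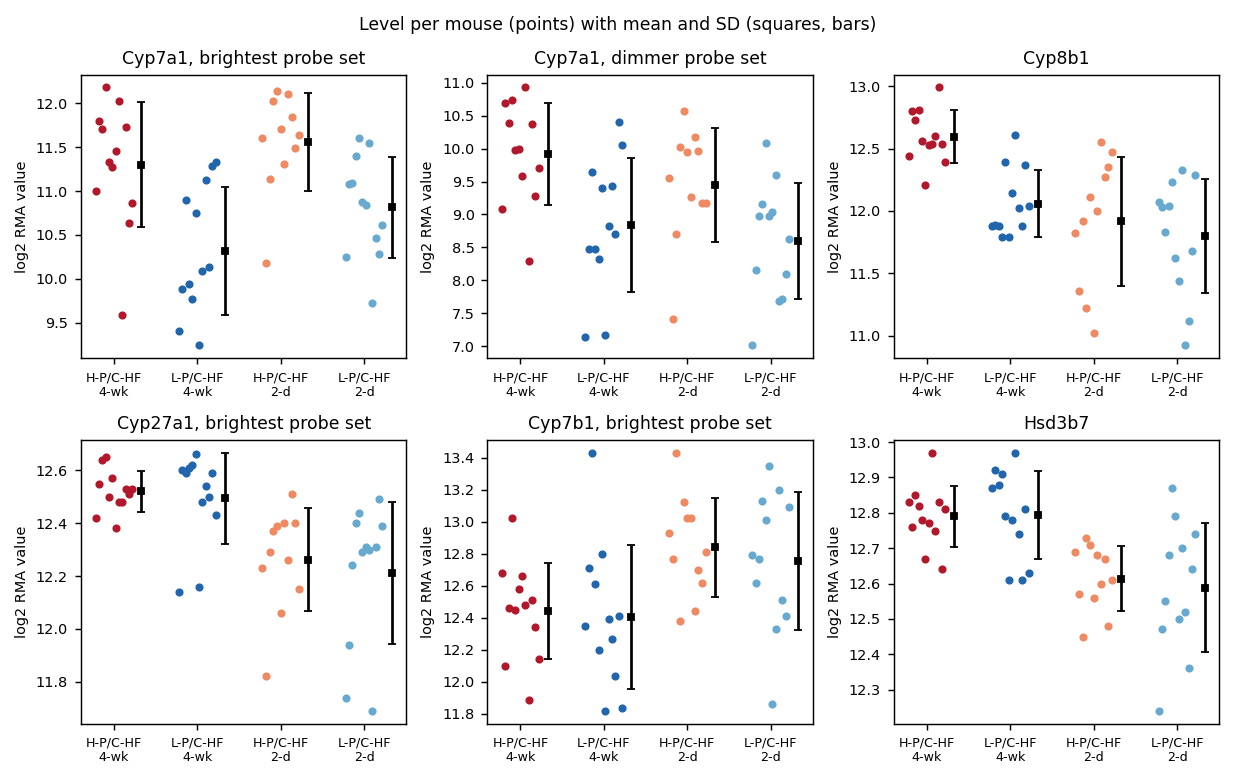
Level (log2 RMA value, vertical axis) of Cyp7a1, Cyp8b1, Cyp27a1, Cyp7b1 and Hsd3b7 in each mouse (points) of the 4 groups, with the mean and SD beside them (squares and bars). Both Cyp7a1 probe sets are higher on average with H-P/C-HF at each duration, Cyp8b1 is highest on average in the H-P/C-HF 4-wk mice, and Cyp27a1 and Hsd3b7 have higher means at 4-wk than at 2-d with both diets.

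Cyp8b1, which steers synthesis toward cholic acid, was not called in any diet comparison, and the values below are given without a call. At 4-wk its level ranged from 12.21 to 12.99 with a median of 12.55 in H-P/C-HF livers, against 11.79 to 12.61 with a median of 11.96 in L-P/C-HF livers. All 12 H-P/C-HF livers exceeded the median of L-P/C-HF, and 4 lay above every L-P/C-HF mouse. The difference was 0.54 ± 0.15 (SE), a fold of 1.45 (1.18 to 1.78), with an unadjusted p of 0.000595 and an adjusted p of 0.999. At 2-d the ranges were 11.02 to 12.55 (median 12) in H-P/C-HF livers and 10.92 to 12.33 (median 11.93) in L-P/C-HF livers, and the difference was 0.12 ± 0.15 (unadjusted p = 0.438). Mice of the same group were more alike at 4-wk, with SDs of 0.21 (H-P/C-HF) and 0.27 (L-P/C-HF), than at 2-d, with SDs of 0.52 (H-P/C-HF) and 0.46 (L-P/C-HF). The gap between the diet differences was 0.42 log2 units (95% confidence interval -0.00 to 0.84, unadjusted p = 0.0503, adjusted p = 1), so a difference between durations was not established. Averaged over durations the difference was 0.33 ± 0.11 (unadjusted p = 0.00298, adjusted p = 0.651).

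RefSeq promoter sequences (mouse build GRCm38.p6) were found for 5 of the 10 enzymes, of which 2 are shown. That of Cyp8b1 is the 1 that held a match to the motifs searched, and that of Cyp27a1, the first enzyme of the alternative pathway, is set beside it. Each holds the 250 bases before the annotated start of the gene and reads along the gene's strand. Cyp8b1 lies at chr9:121916306-121916555 (minus strand) and Cyp27a1 at chr1:74713285-74713534 (plus strand). Capitals mark matches to the motifs searched, on both strands: CAAGGNCA, bound by NR5A2 (LRH-1), CAAAGTCCA, bound by HNF4A, and TTANGTAA, bound by DBP and its relatives.

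Cyp8b1: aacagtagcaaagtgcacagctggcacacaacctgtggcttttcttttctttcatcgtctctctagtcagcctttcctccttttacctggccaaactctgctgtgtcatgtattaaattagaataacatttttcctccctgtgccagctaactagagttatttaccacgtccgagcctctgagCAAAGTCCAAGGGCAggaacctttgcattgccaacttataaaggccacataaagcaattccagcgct

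Cyp27a1: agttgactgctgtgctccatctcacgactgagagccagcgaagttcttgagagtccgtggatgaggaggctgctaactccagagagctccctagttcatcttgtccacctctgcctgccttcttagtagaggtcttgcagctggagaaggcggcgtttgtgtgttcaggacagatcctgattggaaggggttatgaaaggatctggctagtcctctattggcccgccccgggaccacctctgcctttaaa

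The Cyp8b1 promoter held the HNF4A motif from -67 to -59 and the NR5A2 motif, as CAAGGGCA, from -60 to -53, counted back from -1, the base before the start. The motifs overlap in the sequence and were on the gene's own strand. The promoters of Cyp27a1, Hsd3b7, Akr1d1 and Acox2 held no match to these letters in the same window. Of 32851 RefSeq promoters of the same length, 0.384% held the HNF4A motif, 5.53% the NR5A2 motif and 2.06% the DBP motif. A match describes the sequence and does not show binding.

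The enzymes of the alternative pathway showed no called diet difference. Cyp27a1 at 4-wk ranged from 12.38 to 12.65 (median 12.52) in H-P/C-HF livers, against 12.14 to 12.66 (median 12.57) in L-P/C-HF livers. At 2-d it ranged from 11.82 to 12.51 (median 12.29) in H-P/C-HF livers, against 11.69 to 12.49 (median 12.31) in L-P/C-HF livers. The groups overlapped nearly fully at both durations, and the averaged difference was 0.04 with a 95% confidence interval of -0.07 to 0.15. Cyp7b1 at 4-wk ranged from 11.89 to 13.02 (median 12.47) in H-P/C-HF livers, against 11.82 to 13.43 (median 12.37) in L-P/C-HF livers. At 2-d it ranged from 12.38 to 13.43 (median 12.81) in H-P/C-HF livers, against 11.86 to 13.35 (median 12.78) in L-P/C-HF livers. Its averaged difference was 0.06 with an interval of -0.15 to 0.27. The second Cyp7b1 probe set followed the first across mice (r = 0.98) and gave 0.08 (-0.17 to 0.33). The remaining probe set of each gene had a mean of 3.72 (Cyp27a1) or 4.79 (Cyp7b1), below the median of every array, and did not follow the brightest across mice (r = -0.01 and -0.10). The dim Cyp27a1 probe set had a difference of 0.08 at 4-wk (unadjusted p = 0.03).

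The enzymes of the shared steps differed little between diets. Averaged over durations, the difference was 0.01 (95% confidence interval -0.07 to 0.09) for Hsd3b7, 0.03 (-0.16 to 0.23) for Akr1d1, 0.05 (-0.01 to 0.11) for Slc27a5 and -0.04 (-0.15 to 0.07) for Baat. For Acox2 it was -0.00 (-0.09 to 0.09). These intervals hold no difference as large as that of Cyp7a1. Amacr, the racemase that flips the side chain for peroxisomal shortening, averaged 11.43 ± 0.09 (SD) in H-P/C-HF and 11.55 ± 0.16 in L-P/C-HF livers at 4-wk. At 2-d it averaged 11.44 ± 0.15 in H-P/C-HF and 11.52 ± 0.18 in L-P/C-HF livers. Its averaged difference was -0.09 (-0.18 to -0.00, unadjusted p = 0.0443, adjusted p = 1). The second probe set gave 0.05 (-0.19 to 0.29) for Akr1d1 and -0.07 (-0.17 to 0.02) for Baat.

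The classic and the alternative enzymes were set side by side within each mouse, as a description. Of the 4 genes, Cyp7a1 alone was called for diet, and only on average over the durations. The mean of Cyp7a1 and Cyp8b1 minus the mean of Cyp27a1 and Cyp7b1 was taken as a score whose differences between groups, and not its absolute level, can be read. The score counts Cyp27a1 with the alternative pathway alone, which is an assignment and not a result. At 4-wk the score ranged from -1.09 to -0.03 (mean -0.53 ± 0.33, SD, n = 12) in H-P/C-HF livers, against -1.77 to -0.45 (-1.26 ± 0.43, n = 12) in L-P/C-HF livers. All 12 H-P/C-HF livers exceeded the median of L-P/C-HF. At 2-d it ranged from -1.53 to -0.03 (-0.81 ± 0.44, n = 11) in H-P/C-HF livers, against -2.13 to -0.38 (-1.18 ± 0.47, n = 12) in L-P/C-HF livers, and 8 of 11 H-P/C-HF livers exceeded the median of L-P/C-HF. The mean of the classic enzymes was 11.95 ± 0.41 in H-P/C-HF and 11.19 ± 0.39 in L-P/C-HF livers at 4-wk, while that of the alternative enzymes was 12.48 ± 0.16 in H-P/C-HF and 12.45 ± 0.28 in L-P/C-HF livers. The difference between diets in the score was 0.73 at 4-wk and 0.37 at 2-d, given as a description with no test.

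Duration was compared within each diet, to see which enzymes differed between 4-wk and 2-d of feeding. In L-P/C-HF livers 3 of the 16 probe sets rose (Cyp27a1, Hsd3b7 and Akr1d1) and none fell, against 6.87% of all probe sets called. In H-P/C-HF livers 3 rose (Cyp8b1, Cyp27a1 and Hsd3b7) and 1 fell (the second of Cyp7b1), against 6.69% of all. These comparisons use the same mice as the diet comparisons. Cyp8b1 had the largest called difference, 0.68 ± 0.15 (SE, adjusted p = 0.00218) in H-P/C-HF livers, where all 12 mice at 4-wk lay above the 2-d median and 6 above every 2-d mouse. In L-P/C-HF livers its difference was 0.26 ± 0.15 (adjusted p = 0.389). Cyp27a1 differed by 0.26 ± 0.08 (adjusted p = 0.0332) in H-P/C-HF livers and by 0.28 ± 0.08 (adjusted p = 0.0145) in L-P/C-HF livers. Hsd3b7, the dehydrogenase of the sterol ring, ranged from 12.64 to 12.97 at 4-wk and from 12.45 to 12.73 at 2-d in H-P/C-HF livers, so that 10 of 12 mice at 4-wk lay above every 2-d mouse. In L-P/C-HF livers it ranged from 12.61 to 12.97 at 4-wk and from 12.24 to 12.87 at 2-d, and 4 of 12 mice lay above every 2-d mouse. Its difference was 0.18 ± 0.06 (adjusted p = 0.0418) in H-P/C-HF livers and 0.21 ± 0.05 (adjusted p = 0.0115) in L-P/C-HF livers.

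Akr1d1, the ring reductase, differed by 0.44 ± 0.13 (adjusted p = 0.0306) in L-P/C-HF livers at its brightest probe set, while its second probe set gave -0.03 ± 0.17 in the same mice. The second Cyp7b1 probe set fell by 0.56 ± 0.18 (adjusted p = 0.042) in H-P/C-HF livers, and its difference in L-P/C-HF livers was -0.50 ± 0.17 (adjusted p = 0.0716). At the brightest Cyp7b1 probe set the values were -0.40 (adjusted p = 0.104) in H-P/C-HF livers and -0.35 (adjusted p = 0.164) in L-P/C-HF livers. The RNA measure moved with duration, and with it as a covariate 1 of the 4 calls in H-P/C-HF livers remained, Cyp8b1 with 0.68 and an adjusted p of 0.0274. In that fit Cyp27a1 gave 0.11 (adjusted p = 0.758) in H-P/C-HF and 0.12 (adjusted p = 0.881) in L-P/C-HF livers, and Hsd3b7 gave 0.10 (adjusted p = 0.656) in H-P/C-HF and 0.12 (adjusted p = 0.69) in L-P/C-HF livers. No member was called in L-P/C-HF livers, and calls over all probe sets were 622 in H-P/C-HF and 464 in L-P/C-HF livers, against 3012 (H-P/C-HF) and 3096 (L-P/C-HF) without the covariate. Kupffer cell markers also moved with duration: 6 of 8 rose in H-P/C-HF livers and 8 of 8 in L-P/C-HF livers, with a median difference of 0.84 in the H-P/C-HF livers. Their mean level per mouse was 8.46 to 9.92 at 4-wk against 8.35 to 9.19 at 2-d in H-P/C-HF livers, and 9.12 to 10.52 at 4-wk against 8.36 to 9.48 at 2-d in L-P/C-HF livers. Markers of other liver cells moved too. Of sinusoidal endothelial markers 4 of 4 rose in H-P/C-HF livers (median 0.45) and 3 of 4 in L-P/C-HF livers (median 0.56), and of stellate cell markers 3 of 5 rose with each diet (medians 0.44 in H-P/C-HF and 0.49 in L-P/C-HF). The part of these cell types in the results of the enzymes was not tested.

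The probe sets of Cyp7a1 gave duration differences of opposite sign. The brightest differed by -0.26 ± 0.25 (SE, adjusted p = 0.639) in H-P/C-HF livers and -0.49 ± 0.25 (adjusted p = 0.297) in L-P/C-HF livers. The dimmer differed by 0.47 ± 0.35 (adjusted p = 0.515) in H-P/C-HF livers and 0.24 ± 0.34 (adjusted p = 0.814) in L-P/C-HF livers. The brightest minus the dimmer averaged 1.38 ± 0.26 (SD, n = 12) in H-P/C-HF and 1.48 ± 0.37 (n = 12) in L-P/C-HF livers at 4-wk, against 2.11 ± 0.35 (n = 11) in H-P/C-HF and 2.22 ± 0.50 (n = 12) in L-P/C-HF livers at 2-d. Within groups, this gap correlated with the 3' minus 5' measure across the 47 mice (r = 0.76, p = 1e-05, rho = 0.63, p = 2e-05, permutation within groups, two-sided), where 1e-05 is the smallest p that the permutations can give. Without the 2 mice of the most extreme measure r was 0.70. With the measure as a covariate, the dimmer probe set gave -0.11 (adjusted p = 0.975) in H-P/C-HF and -0.42 (adjusted p = 0.942) in L-P/C-HF livers. Neither was called, so their sign is not established. The averaged diet difference of the brightest probe set was 0.87 with the covariate (adjusted p = 0.0258), and that of the dimmer was 1.01 (adjusted p = 0.0539).

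**Figure D3:**
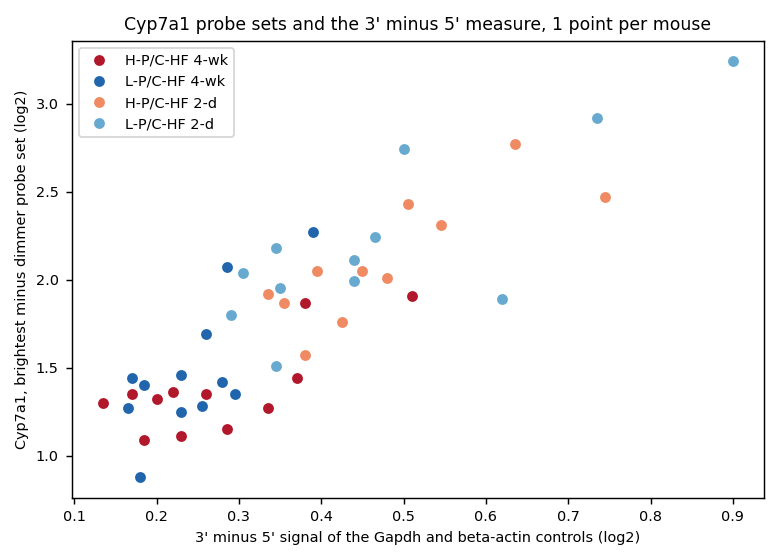
Gap between the Cyp7a1 probe sets (log2, vertical axis) against the RNA degradation measure (3' minus 5' control signal, log2, horizontal axis), with 1 point per mouse in the colour of its group. The mice at 2-d lie at higher values of both measures than most mice at 4-wk, and the gap goes with the measure within groups as well (r = 0.76).

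Over all 47 mice, with group means removed, Cyp27a1 had the highest r with Cyp7a1 of the 9 other enzymes, while by rank it was close to Cyp8b1 (rho 0.32 and 0.31). Each level was taken as its deviation from the group mean, and the relation of each of the 9 other enzymes to Cyp7a1 was tested by permutation within groups (two-sided). Adjusted p-values are those of a limma fit over all probe sets with the Cyp7a1 level as a term. For Cyp27a1 r was 0.48 (permutation p = 0.00034, adjusted p = 0.333) and rho 0.32 (permutation p = 0.028). Without the 2 mice farthest from the median Cyp7a1 level, both L-P/C-HF 4-wk, r was 0.39 (p = 0.00577). Without the 2 mice of the most extreme Cyp7a1 deviation it was 0.44 (p = 0.00516). Some 2-d mice were the lowest of their group for both genes. Replicates 9 and 1 of L-P/C-HF 2-d (A09 and A01) had Cyp7a1 at 9.72 and 10.25 and Cyp27a1 at 11.69 and 11.74. Replicate 3 of H-P/C-HF 2-d had 10.18 and 11.82. The study named A01 and A09 as potential outliers but kept them. Within the groups r was 0.37 in H-P/C-HF 4-wk, 0.52 in L-P/C-HF 4-wk, 0.65 in H-P/C-HF 2-d and 0.54 in L-P/C-HF 2-d mice, with p of 0.231, 0.0881, 0.0412 and 0.0717. The rank correlations were 0.38, 0.12, 0.22 and 0.33 in the same order, so that r exceeded rho in 3 of the 4 groups. In 3 of the groups at least 1 other enzyme had a higher r. These were Cyp7b1, Hsd3b7 and Cyp8b1 in H-P/C-HF 4-wk mice (0.64, 0.49 and 0.39) and Akr1d1 in H-P/C-HF 2-d mice (0.66). In L-P/C-HF 2-d mice they were Cyp8b1, Slc27a5 and Akr1d1 (0.67, 0.67 and 0.64). None of the 9 enzymes was called in the fit over all probe sets, where 0.00666% were called. With the dimmer Cyp7a1 probe set in place of the brightest, r was 0.61 and Cyp27a1 was called (adjusted p = 0.013). That call was lost with the RNA measure as a covariate (r = 0.51, adjusted p = 0.126). With the brightest probe set and the covariate, r was 0.49 (adjusted p = 0.284).

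Cyp8b1 gave r = 0.32 (permutation p = 0.0193, adjusted p = 0.536, rho = 0.31) and Akr1d1 r = 0.30 (permutation p = 0.0348, adjusted p = 0.552, rho = 0.26). The r of Cyp8b1 was 0.39 (H-P/C-HF) and 0.0028 (L-P/C-HF) within the 4-wk groups. Within the 2-d groups it was 0.29 (H-P/C-HF) and 0.67 (L-P/C-HF). With the dimmer Cyp7a1 probe set the r of Cyp8b1 was 0.27 (permutation p = 0.0767). The second Akr1d1 probe set gave r = -0.02 with Cyp7a1 (unadjusted p = 0.909). The within-group values of Akr1d1 split by duration, with r of -0.17 (H-P/C-HF) and -0.00 (L-P/C-HF) at 4-wk, against 0.66 (H-P/C-HF) and 0.64 (L-P/C-HF) at 2-d, and the difference between durations was not tested. Slc27a5 gave 0.28 (p = 0.054), Hsd3b7 0.22 (p = 0.127) and Cyp7b1 0.15 (p = 0.342). For Acox2, Amacr and Baat r lay between -0.03 and 0.02. Without the 2 mice farthest from the median Cyp7a1 level, r was 0.34 for Cyp8b1 and 0.31 for Akr1d1. The median r over all genes was -0.00, with quartiles of -0.14 and 0.13.

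**Figure D4:**
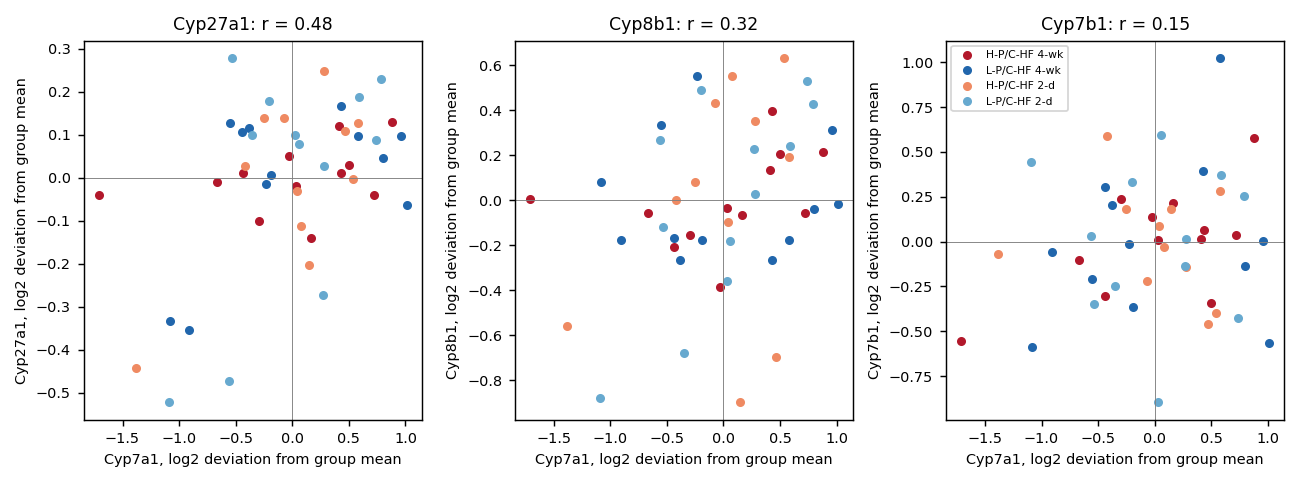
Deviation from the group mean (log2) of Cyp27a1, Cyp8b1 and Cyp7b1 (vertical axes) against that of Cyp7a1 (horizontal axes), with 1 point per mouse coloured by group. Over all mice r is 0.48 for Cyp27a1, 0.32 for Cyp8b1 and 0.15 for Cyp7b1.

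Over all 45 pairs of the 10 enzymes, 40 correlations were above 0, with a median r of 0.30, given as a description since the genes share arrays. The closest pair was Akr1d1 with Slc27a5, the bile acid CoA ligase (r = 0.71). The peroxisomal enzymes formed close pairs among themselves and with BAAT, which also acts there: Amacr with Baat (0.60), Amacr with Acox2 (0.54) and Baat with Acox2 (0.52). Cyp27a1 went with Akr1d1 (0.55) and Slc27a5 (0.52). Cyp7b1 held the 2 lowest values, -0.41 with Akr1d1 and -0.37 with Slc27a5, beside 0.46 with Amacr, 0.29 with Acox2 and 0.26 with Hsd3b7.

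**Figure D5:**
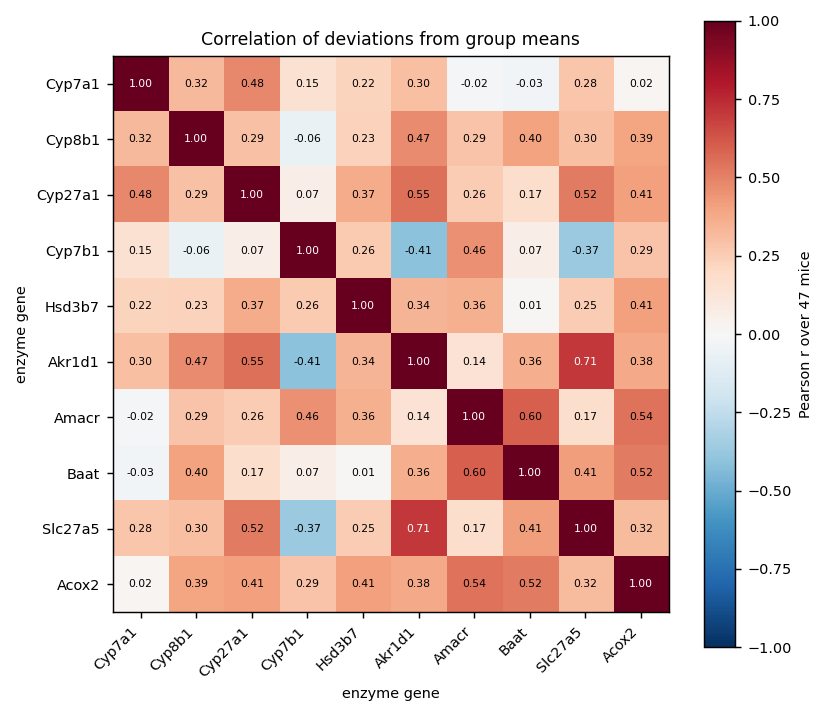
Pearson r over 47 mice between the deviations from group means of the 10 enzymes (both axes), with the colour scale from -1 to 1. The highest values are Akr1d1 with Slc27a5 (0.71), Amacr with Baat (0.60) and Cyp27a1 with Akr1d1 (0.55), and the lowest are Cyp7b1 with Akr1d1 (-0.41) and Slc27a5 (-0.37).

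The genes most like Cyp7a1 across mice, among 11917 brightest probe sets above the median level, were Gpcpd1 (r = 0.61, adjusted p = 0.0414), Coq10b (0.55), Klf1 (0.55), Fdx1 (0.53) and Hrg (0.53). The lowest were Cd9 (-0.64, adjusted p = 0.0168), Nedd4l (-0.59) and Gtf2ird1 (-0.59), and beside Gpcpd1 and Cd9 these genes were not called. The third probe set called in this fit was the dimmer one of Cyp7a1. Fdx1 encodes the mitochondrial ferredoxin that passes electrons to CYP27A1. The averaged diet difference was 0.19 for Gpcpd1 (unadjusted p = 0.194) and -0.29 for Cd9 (unadjusted p = 0.0067, adjusted p = 0.796).

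The other genes around the pathway were read from lists, and none of their members was called for diet at either duration or on average. Of 13 matched further genes of bile acid synthesis, 6 had an averaged difference above 0 (median -0.01), and Acot8 (-0.12) and Abcd3 (-0.09), both of the peroxisome, had unadjusted p of 0.0264 and 0.0481. Cyp39a1, an oxysterol hydroxylase, gave 0.28 (unadjusted p = 0.0726). Of 18 regulators of Cyp7a1, 11 were above 0 (median 0.03). Nr0b2 (SHP), the repressor of Cyp7a1 and Cyp8b1, had the smallest p among them. It averaged 9.45 ± 0.41 (SD) in H-P/C-HF and 9.89 ± 0.30 in L-P/C-HF livers at 4-wk, and 9.61 ± 0.39 in H-P/C-HF and 9.85 ± 0.29 in L-P/C-HF livers at 2-d. Its averaged difference was -0.34 (unadjusted p = 0.00111, adjusted p = 0.412), and its r with Cyp7a1 was -0.27 (unadjusted p = 0.0597). Ppargc1a, a coactivator, gave 0.14 (unadjusted p = 0.0452) and Rxra, the partner of FXR, 0.08 (unadjusted p = 0.107).

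Of 15 transporters of bile acids and sterols, 5 had an averaged difference above 0 (median -0.02). Slc51b, a subunit of the basolateral bile acid exporter, gave -0.15 (unadjusted p = 0.0181) and Slco1a4, an uptake carrier, 0.25 (unadjusted p = 0.0188). Abcg5, the sterol exporter into bile, gave -0.36 at 4-wk (unadjusted p = 0.00511) and 0.05 at 2-d (unadjusted p = 0.673). Of 17 clock genes, 11 were above 0 (median 0.03), with Dbp at 0.21 (unadjusted p = 0.0462), Nfil3 at -0.19 (unadjusted p = 0.0892) and Nr1d2 at 0.10 (unadjusted p = 0.106). At 2-d Nfil3 gave -0.39 (unadjusted p = 0.0158) and Dbp 0.30 (unadjusted p = 0.0497), against 0.01 and 0.13 at 4-wk. In the relation to Cyp7a1, 2 clock genes had a positive and 2 a negative r at an unadjusted p under 0.05. Of all probe sets 8.85% had such a p, and no clock gene was called. Cyp7a1 is known to follow the daily rhythm through DBP, and the hour of death of each mouse was not used here. The 8 Kupffer cell markers had r of 0.16 to 0.25 with Cyp7a1 across mice, all with an unadjusted p over 0.05, and their part in the diet difference was not tested.

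For duration, the lists held more calls. In H-P/C-HF livers the further synthesis genes Scp2 (0.16) and Abcd3 (0.23) rose and Cyp2c70 (-0.47), the enzyme that makes muricholic acids in mice, fell, with adjusted p of 0.00529, 0.0216 and 0.000352. In L-P/C-HF livers Scp2 alone rose (0.16, adjusted p = 0.00506). Among the regulators, Klb, the co-receptor for the intestinal hormone FGF15, rose by 0.32 in H-P/C-HF livers (adjusted p = 0.00593) and by 0.23 in L-P/C-HF livers (adjusted p = 0.0485). Hnf4a, an activator of Cyp7a1 and Cyp8b1, fell by 0.30 in H-P/C-HF livers (adjusted p = 0.000565) and by 0.29 in L-P/C-HF livers (adjusted p = 0.00068). Mafg (-0.42) and Nr1i2 (-0.34) fell in H-P/C-HF livers, with adjusted p of 0.000878 and 0.0295, and Onecut1 (-1.28, adjusted p = 0.0013) fell in L-P/C-HF livers. Of the transporters, Abcc4 rose by 0.38 in H-P/C-HF livers (adjusted p = 0.00376) and by 0.34 in L-P/C-HF livers (adjusted p = 0.00885). In H-P/C-HF livers Slc10a1, the main hepatic uptake carrier of bile acids, rose (0.24, adjusted p = 0.0332) and Abca1 fell (-0.29, adjusted p = 0.00393). Of the clock genes, Nr1d1 rose in L-P/C-HF livers (0.36, adjusted p = 0.045) and none was called in H-P/C-HF livers. With the RNA measure as a covariate, Cyp2c70 (-0.47, adjusted p = 0.00661), Mafg (-0.37, adjusted p = 0.0412) and Abca1 (-0.34, adjusted p = 0.0091) were still called in H-P/C-HF livers. The other calls of these 4 lists were lost in that fit, where some estimates shrank and others did not. Scp2 gave 0.05 in H-P/C-HF and 0.03 in L-P/C-HF livers. Abcc4 still gave 0.36 (adjusted p = 0.067) in H-P/C-HF and 0.32 (adjusted p = 0.216) in L-P/C-HF livers, and Nr1d1 gave 0.43 (adjusted p = 0.158) in L-P/C-HF livers. The RNA measure itself differed between durations, so this fit cannot separate RNA quality from duration.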

How the data were processed

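Liver RNA of 48 mice was measured with 1 array per mouse. The authors deposited log2 values with 2 decimals from RMA, which corrects background, normalizes between arrays and summarizes each probe set. The log base was inferred from the range (3.16 to 14.81), and tool versions are not given in the sources used here. The label HPHC was taken as H-P/C-HF. Symbols came from GEO's platform annotation (932 probe sets have several symbols and 9160 none), and of 110 genes in 12 lists 105 were matched. The enzymes and lists were chosen with earlier results of these data known. After B25 and 64 control probe sets were left out, 47 arrays and 45037 probe sets were fitted in R 4.3.3 with limma 3.58.1 (1 model of the 4 groups, eBayes with a trend, two-sided, Benjamini-Hochberg at 0.05). The relation to Cyp7a1 added its level as a term and was also tested by 1e+05 permutations within groups. RMA values are compressed at low levels and can understate folds, and precision rests on the number of arrays.

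Genes named beside the 10 enzymes were the 3 with the smallest p in the averaged diet comparison of each list described, any called, and those most and least like Cyp7a1 (5 and 3); Cd9 and Gpcpd1 are the called ones among these. Genes of these lists called for duration are named too. Marker lists are described as a whole. The procedure was tested on simulated data with independent noise for each probe set and array, which does not measure false calls in these data. Motifs were searched in RefSeq promoters. The study named A01, A09 and A24 as potential outliers but kept them. The software of Global Error Assessment was not used here, and one-way ANOVA, which the study's methods name, was run as an alternative beside fits with B25, without A01, A09 and A24, with array weights, median centring, cyclic loess, an RNA quality covariate, the replicate number as a factor, no trend, brighter probe sets alone, separate fits and leaving out each array. The dimmer Cyp7a1 probe set (alone and with the RNA quality covariate), the covariate for genes of the lists, the 2 mice of the most extreme Cyp7a1 deviation and the score without A01, A09 and A24 were alternatives chosen after seeing the data.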

Additional observations from a re-analysis of the deposited data

How the results depend on the processing

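The averaged diet difference of Cyp7a1 stayed above 0 in every alternative run, from 0.81 to 0.94 when each array was left out in turn and from 0.83 to 0.87 otherwise. Its call was lost with the replicate number as a block, where it was 0.84 with an adjusted p of 0.0916 and 0 of the 16 probe sets were called. Replicate numbers were not taken as pairs, since the labels name no source shared by mice of the same number. At 4-wk 2 of 12 pairs of the same number had deviations that correlated over 0.1 (median r -0.03, against 0.01 for other pairs). There 0 of 12 matched their own number best. At 2-d 7 of 11 pairs correlated over 0.1 (median 0.27, against 0.00) and 3 of 11 matched best. Mice of the same number were thus more alike at 2-d, and what they shared is not given. With the block 18 probe sets were called in all, against 23 without it. With array weights over 48 arrays, the difference of Cyp7a1 at 4-wk was 1.12 and was called (adjusted p = 0.0394), the 1 member called there. When each array was left out, the Cyp7a1 difference ranged from 0.88 to 1.13 at 4-wk and from 0.65 to 0.89 at 2-d, the gap between them from 0.09 to 0.38, and the duration difference from -0.40 to -0.11 in H-P/C-HF and from -0.59 to -0.39 in L-P/C-HF mice, none called.

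The members called for duration in L-P/C-HF mice numbered 3, against 4 with the replicate block, 1 with A01, A09 and A24 also left out and 0 with the RNA quality covariate, the separate fit or one-way ANOVA. In H-P/C-HF mice they numbered 4, against 5 with the separate fit, 2 with cyclic loess and 1 with the covariate. The dimmer Cyp7a1 probe set turned negative in L-P/C-HF mice without A01, A09 and A24 (-0.12), with array weights (-0.053) and with the covariate (-0.42), and with H-P/C-HF only under the covariate (-0.11). For the relation to Cyp7a1, 1 enzyme was called with cyclic loess and with the dimmer Cyp7a1 probe set, against 0, and the r of Akr1d1 was -0.17 within H-P/C-HF 4-wk and -0.0026 within L-P/C-HF 4-wk mice. Calls over all probe sets in the averaged comparison numbered 90 with array weights, 72 with cyclic loess, 18 with the block or without a trend, and 13 to 31 when each array was left out, the fewest without replicate 5 of H-P/C-HF 2-d (B29). At 2-d they were 6, against 23 with cyclic loess, 12 with the brighter probe sets, 1 with the block and 0 with one-way ANOVA, and at 4-wk 0, against 10 with array weights. For duration they were 3012 in H-P/C-HF mice, against 5545 with array weights and 622 with the covariate, and 3096 in L-P/C-HF mice, against 1659 with one-way ANOVA and 464 with the covariate. Of the calls in L-P/C-HF mice 78.4% were higher at 4-wk, against 66.2% with cyclic loess. Of 543 values of results with an unadjusted p over 0.05, 62 changed sign, the lowest p among these being 0.109, and 7, all of them r of Cyp7b1, Hsd3b7 or Slc27a5 with Cyp7a1, came to an unadjusted permutation p under 0.05. The score difference moved by less than 1 SD within groups in every alternative run. Those SDs were 0.33 to 0.47, about as large as the score difference at 2-d, so this bound says little about its stability there.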
